A study of Mus musculus with 69 samples.

Results

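Podocytes are the epithelial cells that wrap the glomerular capillaries, and their transcripts were followed here through 9 genes listed by symbol for their known place in that cell. The genes were Nphs1, Magi2, Cd2ap, Podxl, Ptpro, Synpo, Nes, Wt1 and Plce1, which are 9 of the 24523 symbols with counts, and all 9 passed the count minimum in every comparison. The kidneys came from female NZB/W F1 mice, a hybrid strain that develops lupus nephritis with age. RNASeq was performed on RNA of whole perfused kidneys from 30 young mice at 12 weeks of age, 27 nephritic mice at 30 to 45 weeks and 8 mice in remission at 36 to 50 weeks. Nephritic kidneys were taken 2 to 3 weeks after proteinuria reached 300 mg/dl, with a blood urea nitrogen below 25 mg/dl. Remission was induced in mice with new proteinuria by 1 dose of cyclophosphamide at 50 mg/kg and 6 doses each of CTLA4Ig (200 µg) and anti-CD40L (250 µg), and kidneys were taken 8 weeks later from mice with proteinuria of at most 30 mg/dl. No treatment is given for the young and nephritic mice, and age, disease and treatment cannot be told apart between the groups.

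Podocyte foot processes interlock around the capillary, and the gaps between them are bridged by the slit diaphragm, a cell junction that holds back plasma protein. Nephrin, encoded by Nphs1, spans the gap, and adaptor proteins such as MAGI-2 and CD2AP tie it to the actin cytoskeleton of the foot process. Loss of these proteins causes proteinuria, and in many glomerular diseases podocytes detach or lose foot process structure. In whole kidney RNA, fewer podocytes and less RNA per podocyte cannot be told apart.

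Kirrel2, which encodes a nephrin-like slit diaphragm protein, is the head-to-head neighbour of Nphs1, and the annotated starts of the 2 genes lie 625 bases apart. The RefSeq promoter windows, from 250 bases before to 50 after a transcript start in GRCm38.p6, matched 6 of the 9 genes. Those of Nphs1, Kirrel2, Magi2, Cd2ap and Nes are shown because the results turn on these genes. The windows lie at chr7:30459808-30460107 (plus strand), chr7:30457466-30457765 (minus strand), chr5:19226796-19227095 (plus strand), chr17:42876375-42876674 (minus strand) and chr3:87970843-87971142 (plus strand). The Nphs1 window belongs to a RefSeq start 1743 bases inside the GENCODE start of the gene. Each is given 5′ to 3′ on the strand of its gene, and capitals mark matches of either strand to GNGTGGGNG, a WT1-like sequence.
Nphs1: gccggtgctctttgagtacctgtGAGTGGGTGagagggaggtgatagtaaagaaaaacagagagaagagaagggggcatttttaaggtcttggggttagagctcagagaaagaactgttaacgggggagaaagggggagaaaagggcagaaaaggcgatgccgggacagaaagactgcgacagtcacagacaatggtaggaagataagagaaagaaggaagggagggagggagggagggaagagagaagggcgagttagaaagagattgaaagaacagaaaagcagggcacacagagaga
Kirrel2: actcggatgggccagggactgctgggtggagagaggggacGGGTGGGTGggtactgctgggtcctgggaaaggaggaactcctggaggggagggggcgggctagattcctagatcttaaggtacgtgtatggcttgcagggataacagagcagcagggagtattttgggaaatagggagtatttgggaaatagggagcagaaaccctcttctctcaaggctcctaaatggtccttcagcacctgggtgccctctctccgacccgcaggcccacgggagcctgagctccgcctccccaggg
Magi2: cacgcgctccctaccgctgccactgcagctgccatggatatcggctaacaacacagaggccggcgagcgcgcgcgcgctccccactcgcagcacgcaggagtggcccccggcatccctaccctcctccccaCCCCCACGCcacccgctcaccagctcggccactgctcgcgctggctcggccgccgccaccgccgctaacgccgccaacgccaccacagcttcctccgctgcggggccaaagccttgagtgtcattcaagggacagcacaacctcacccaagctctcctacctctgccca
Cd2ap: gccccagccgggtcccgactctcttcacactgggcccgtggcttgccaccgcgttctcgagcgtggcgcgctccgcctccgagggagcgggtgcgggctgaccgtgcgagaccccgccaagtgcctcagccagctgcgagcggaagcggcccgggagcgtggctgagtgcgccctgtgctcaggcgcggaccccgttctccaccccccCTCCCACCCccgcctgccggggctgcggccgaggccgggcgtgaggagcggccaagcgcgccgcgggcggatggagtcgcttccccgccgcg
Nes: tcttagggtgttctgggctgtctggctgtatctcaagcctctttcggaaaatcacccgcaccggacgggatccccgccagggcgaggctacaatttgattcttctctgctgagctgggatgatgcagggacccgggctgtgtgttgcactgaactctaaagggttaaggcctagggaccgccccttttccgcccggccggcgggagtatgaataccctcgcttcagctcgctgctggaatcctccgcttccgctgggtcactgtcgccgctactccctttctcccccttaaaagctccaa

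The letters GNGTGGGNG occurred once each in the windows of Nphs1, Kirrel2, Cd2ap and in the first of 2 windows of Magi2, and not in those of Nes, Ptpro and Plce1. Of the 6 genes with a window 3 had a match in it, against 14.3% of 32851 promoter windows of the same length. The E-box CACGTG, a sequence that clock factors can bind, occurred in 7.15% of all windows and in none of the windows of the genes examined. G and C made up 77% of the Cd2ap window, 69.3% of the Magi2 window and 49.7% of the Nphs1 window.

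Kidneys were taken at 6 Zeitgeber times, where ZT0 is lights on and ZT12 lights off. Young mice numbered 7, 4, 4, 7, 4 and 4 at ZT0, 4, 8, 12, 16 and 20, nephritic mice 7, 4, 4, 6, 3 and 3, and remission mice 4 at ZT0 and 4 at ZT12. The labels name each mouse, and each was 1 replicate. Total counts ranged from 25257530 to 35744843 per young mouse, from 26596500 to 48075977 per nephritic mouse and from 13311278 to 21849912 per remission mouse. The study's sample table puts 6 young and 5 nephritic mice, all of ZT0 or ZT12, in RNASeq set 1 and the others in set 2. In the remission mouse s9, labelled ZT12, the clock gene Arntl was at 27 CPM (reads of a gene scaled to library size), while the other 3 mice of that label had 3.19 to 4.89 CPM and the 4 mice of ZT0 23.05 to 28.8 CPM. With and without s9, the same number of the 9 genes passed in both remission comparisons, 3 and 3. Of 4 repeat libraries, the one labelled RX11RU was nearest to the original library of another nephritic mouse, RX11LU, and repeat libraries were used only in alternatives.

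Among the 9 genes, Nphs1 lies on chromosome 7 (GRCm38, 7:30458315-30487223, plus strand), Podxl on chromosome 6 (31519488-31563981, minus strand), Synpo on chromosome 18 (60593973-60660142, minus strand), Wt1 on chromosome 2 (105126529-105173616, plus strand) and Ptpro on chromosome 6 (137252319-137463233, plus strand). Magi2 lies on chromosome 5 (19227036-20704792, plus strand), Cd2ap on chromosome 17 (42792951-42876665, minus strand), Plce1 on chromosome 19 (38481109-38785030, plus strand) and Nes on chromosome 3 (87971078-87980451, plus strand). All are positions in the GENCODE annotation of mm10, the build the submitters name.

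Levels between genes were compared per kilobase of exon, in young mice. Podxl, which encodes the sialomucin podocalyxin of the foot process surface, had the highest level at 44.1 ± 7.30 CPM per kb (SD, n = 30). Cd2ap followed at 8.65 ± 0.694 and Synpo at 7.43 ± 1.19 CPM per kb, with overlapping spreads. Nes was at 5.205 ± 0.513, Nphs1 at 4.43 ± 1.08 and Ptpro at 3.79 ± 0.718 CPM per kb, where Nes and Nphs1, and Nphs1 and Ptpro, did not differ beyond their spread. Wt1 at 1.51 ± 0.364 and Magi2 at 1.38 ± 0.170 CPM per kb also overlapped, and Plce1 was lowest at 0.799 ± 0.148 CPM per kb. None of the 9 was at 0 in any mouse, and their summed level was 458 to 747 CPM in young, 549 to 859 CPM in nephritic and 554 to 743 CPM in remission mice.

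Most of the 9 podocyte genes were higher in nephritic than in young kidneys. Of the 9 genes, 5 were higher, 1 was lower and 3 did not pass the test of nephritic against young mice, with time point and set in the fit. Over the 17521 genes tested 28.1% were higher and 33.9% were lower, so calls in either direction were common. The median log2 change was 0.29 over the 9 genes and -0.03 over all genes tested. Tests used edgeR's quasi-likelihood F test with Benjamini-Hochberg adjustment over all genes tested, and a gene passed at an adjusted p of at most 0.05. With counts scaled by library totals alone, the median of all genes moved to 0.14 and their split from 4929 higher and 5948 lower to 8655 higher and 2832 lower. On that scale 7 of the 9 genes were higher and 0 lower.

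Of the slit diaphragm genes, Nphs1 was at 19.5 to 44.6 CPM (median 28.8) in young mice and at 5.62 to 63.3 CPM (median 36.9) in nephritic mice. The nephritic range reached past the young range at both ends, with 8 of 27 nephritic mice above every young mouse and 2 below. Its mean log2 change was 0.29 (SE 0.14, adjusted p = 0.0581), and it passed in 21 of 57 fits that left out 1 mouse. Nphs1 passed in each set fitted alone, in opposite directions, at 0.58 in set 2 (adjusted p = 2.8e-05) and -0.86 in set 1 (adjusted p = 0.0453). Magi2, which encodes a membrane-associated scaffold of the slit diaphragm, was at 12.0 to 20.1 CPM (median 15.3) in young and at 7.26 to 19.4 CPM (median 14.5) in nephritic mice. It was the gene that fell, by 0.24 on the log2 scale (SE 0.06, adjusted p = 0.000765), and 8 of 27 nephritic mice lay below every young mouse. With library totals alone its log2 change was -0.08 (adjusted p = 0.205). In set 2 alone it was -0.09 (adjusted p = 0.211), so the fall did not pass there.

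Cd2ap, whose protein links the slit diaphragm to actin and which other kidney cells also express, was at 119 to 161 CPM (median 136) in young and 130 to 314 CPM (median 171) in nephritic mice. No nephritic mouse was below the young range and 16 of 27 were above it. Its log2 change was 0.38 (SE 0.07, adjusted p = 2.32e-06).

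Among surface and cytoskeletal genes, Nes stood furthest from the young level. Nes encodes the intermediate filament nestin, which marks podocytes in the adult kidney and is also made by activated mesenchymal and endothelial cells. It was at 27.3 to 39.8 CPM (median 33.7) in young and at 41.5 to 143 CPM (median 68.4) in nephritic mice. The ranges did not overlap, as for 0.885% of all genes with the nephritic range higher and 0% with it lower. The log2 change was 1.13 (SE 0.09, adjusted p = 6.93e-16).

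Synpo encodes synaptopodin, an actin-associated protein of foot processes. It was at 51.6 to 99.8 CPM (median 70.3) in young and at 65.0 to 129 CPM (median 98.1) in nephritic mice, of which 12 of 27 lay above the young range. Its log2 change was 0.45 (SE 0.06, adjusted p = 1.01e-08). Ptpro, a receptor tyrosine phosphatase of the foot process surface, was at 18.7 to 37.3 CPM (median 24.5) in young and at 10.6 to 47.2 CPM (median 34.2) in nephritic mice, with 9 of 27 above the young range and 1 below it. Ptpro rose by 0.41 on the log2 scale (SE 0.08, adjusted p = 3.34e-05). Podxl did not pass, at 172 to 331 CPM (median 231) in young and 73.6 to 353 CPM (median 257) in nephritic mice. Its log2 change was 0.01 (SE 0.09, adjusted p = 0.925), although 3 nephritic mice lay above and 3 below every young mouse. With each set fitted alone, Podxl passed at 0.20 in set 2 (adjusted p = 0.0115) and at -0.71 in set 1 (adjusted p = 0.0393).

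Of the regulators, Wt1 passed and Plce1 did not. Wt1, the zinc finger transcription factor that maintains podocyte identity, was at 6.01 to 13.9 CPM (median 9.18) in young and at 7.89 to 18.02 CPM (median 10.6) in nephritic mice. Wt1 rose by 0.23 on the log2 scale (SE 0.07, adjusted p = 0.00523), and 2 of 27 nephritic mice were above every young mouse. Plce1, a phospholipase C needed for glomerular development, was at 9.03 to 19.1 CPM (median 12.6) in young and 9.36 to 18.2 CPM (median 14.1) in nephritic mice, all of them inside the young range. Its log2 change was 0.13 (SE 0.06, adjusted p = 0.0847).

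**Figure D1:**
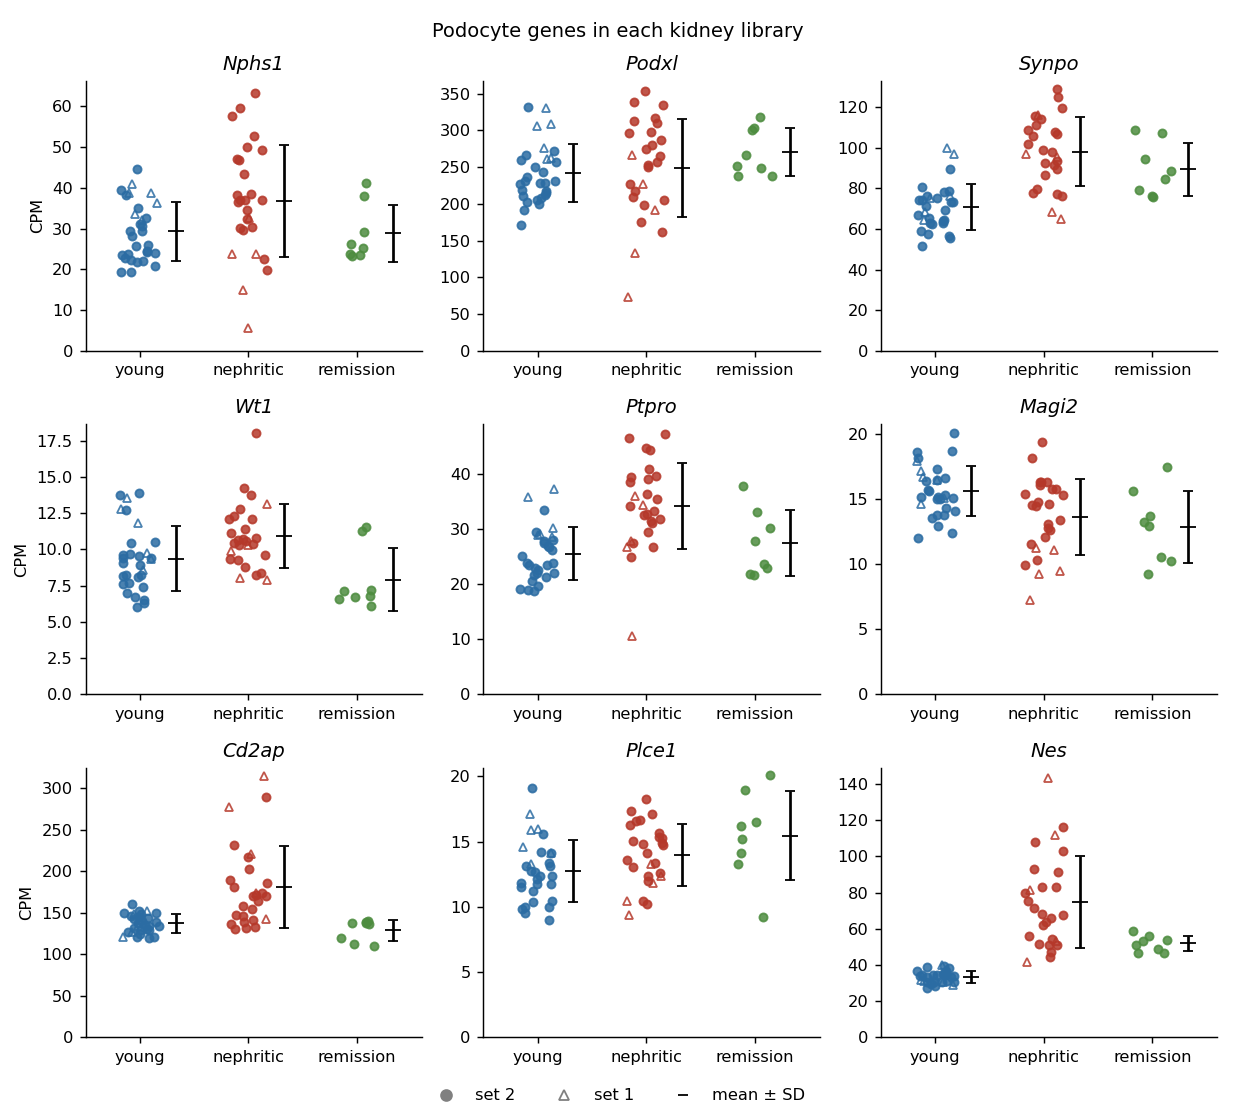
Level of each of the 9 genes in CPM (vertical axes, linear) in every young, nephritic and remission mouse, with circles for set 2, triangles for set 1 and bars for the mean ± SD. Nes shows nephritic mice at 41.5 to 143 CPM, all above the young mice, whereas the Nphs1 and Podxl panels show nephritic mice on both sides of the young range.

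The 2 RNASeq sets gave different answers for the podocyte genes, a comparison added after the data had been seen. Set 1 and set 2 were compared at ZT0 and ZT12, the times they share, with 16684 genes tested. In set 1, with 6 young and 5 nephritic mice, Nphs1 was at 32.2 to 40.9 CPM (median 37.5) in young mice. In the nephritic mice it was at 32.5, 23.9 and 5.62 CPM at ZT0 and at 14.8 and 23.8 CPM at ZT12. All but 1 of the 5 lay below the young range, and the log2 change was -0.86 (SE 0.30, adjusted p = 0.0169). In set 2, with 8 mice in each group, Nphs1 was at 22.05 to 32.5 CPM (median 27.1) in young and 19.8 to 63.3 CPM (median 41.9) in nephritic mice, and its log2 change was 0.62 (SE 0.25, adjusted p = 0.0517). The change in set 1 minus that in set 2 was -1.48 (SE 0.39, adjusted p = 0.00504).

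Of the 9 genes, 7 had a lower nephritic change in set 1 than in set 2 and 0 a higher one, while 16.7% of all genes tested passed as higher and 18.4% as lower. The median of this difference was -0.71 over the 9 genes and 0.02 over all genes. After Nphs1, the difference was -0.87 for Podxl (SE 0.29, adjusted p = 0.0219), -0.80 for Wt1 (SE 0.19, adjusted p = 0.00209), -0.77 for Plce1 (SE 0.13, adjusted p = 8.17e-05) and -0.71 for Ptpro (SE 0.26, adjusted p = 0.0355). It was -0.63 for Magi2 (SE 0.18, adjusted p = 0.00743) and -0.48 for Synpo (SE 0.18, adjusted p = 0.0399). Cd2ap (0.32, adjusted p = 0.302) and Nes (0.17, adjusted p = 0.683) did not pass, and these were higher in nephritic mice of both sets.

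In the nephritic mice of set 1, 2 of the 9 genes were higher and 4 lower, where 31.8% of all genes were higher and 29.1% lower. Magi2 was at 14.7 to 17.9 CPM in young and 7.26 to 11.2 CPM in nephritic mice and fell by 0.77 on the log2 scale (SE 0.14, adjusted p = 4.33e-05). Podxl was at 261 to 331 CPM in young and 73.6 to 266 CPM in nephritic mice and fell by 0.70 (adjusted p = 0.00968). Plce1 was at 13.3 to 17.1 CPM and 9.36 to 13.3 CPM and fell by 0.39 (adjusted p = 0.00115). The 2 higher genes were Cd2ap, at 121 to 153 CPM in young and 143 to 314 CPM in nephritic mice, and Nes, at 28.98 to 39.8 and 41.5 to 143 CPM.

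Within set 2, 6 of the 9 genes were higher and 0 lower, where 20.1% of all genes were higher and 16.2% lower. Wt1 was at 6.26 to 10.5 CPM in young and 8.23 to 18.02 CPM in nephritic mice, a log2 change of 0.63 (SE 0.12, adjusted p = 0.000361). Synpo was at 51.6 to 78.5 CPM and 86.8 to 119 CPM and also rose by 0.63 (SE 0.12, adjusted p = 0.000245). Plce1, lower in set 1, was at 10.4 to 13.4 CPM in young and 13.1 to 17.4 CPM in nephritic mice of set 2 and rose by 0.37 (SE 0.08, adjusted p = 0.00101). Ptpro, Cd2ap and Nes were the other 3.

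Some cell type markers also differed between the sets. Of the proximal tubule markers 3 of 6 had a lower nephritic change in set 1, of the leukocyte markers 4 of 9 a higher one, of the endothelial markers 1 of 6 a lower one, and of the 4 tubular injury genes 0 passed. Lcn2, an injury gene of the tubule, was at 120, 8.9 and 708 CPM in the 3 nephritic mice of set 1 at ZT0 and at 303 and 416 CPM in the 2 at ZT12, in the order given for Nphs1, and at 5.37 to 391 CPM in the 8 nephritic mice of set 2 at these times. The mouse with 708 CPM of Lcn2, CRS60, had the lowest Nphs1, Podxl (73.6 CPM) and Ptpro (10.6 CPM) and the highest Cd2ap (314 CPM) of all nephritic mice, and also the lowest Nes (41.5 CPM). Without CRS60 the Nphs1 difference between sets was -1.25 (adjusted p = 0.0036). Podxl lost its call without the nephritic mouse HIL5RU (-0.77, adjusted p = 0.0545), and Synpo and Ptpro passed in 15 and 18 of 27 fits that left out 1 mouse. The part of the cell type markers in the set difference was not tested. With library totals alone 5 of the 9 genes passed, without Synpo (adjusted p = 0.112) and Ptpro (0.0572).

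**Figure D2:**
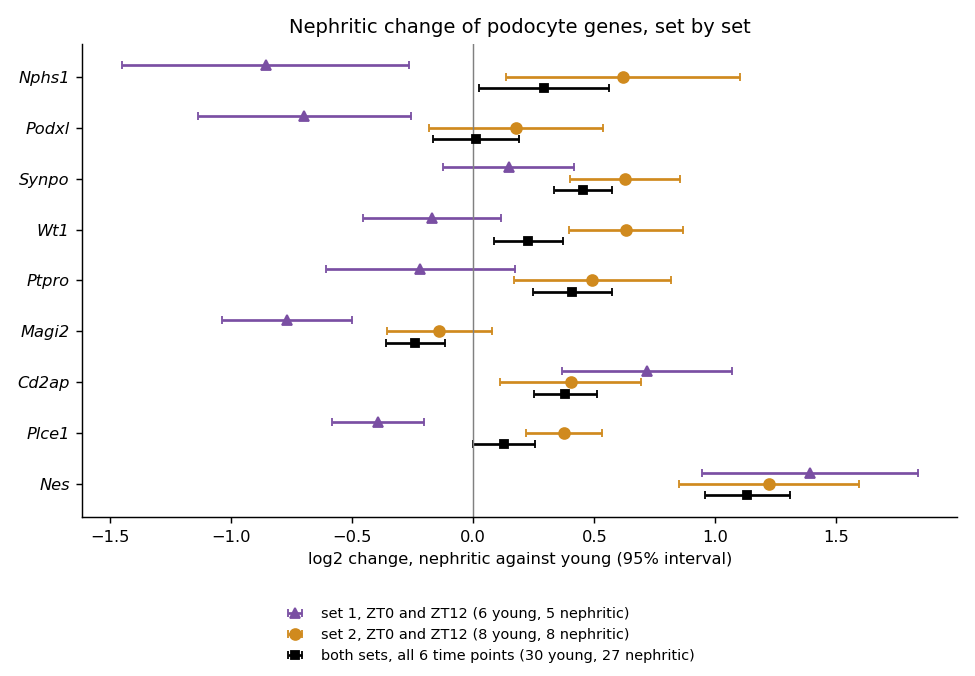
Log2 change of nephritic against young mice for each of the 9 genes in set 1, in set 2 and in all mice with set as a covariate, with bars for unadjusted 95% intervals. Nphs1 sits at -0.86 in set 1 and 0.62 in set 2, while Nes is above 1 in both.

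Within the nephritic group, the 9 genes were set against Lcn2, whose log2 CPM ran from 2.36 to 9.54 (median 6.26) over 27 mice. The fit over 16871 genes, with time point and set, gave a positive slope for 24.3% and a negative slope for 23.6% of all genes. Cd2ap rose by 0.15 log2 per log2 unit of Lcn2 (SE 0.01, adjusted p = 6.19e-08) and Nes by 0.12 (SE 0.03, adjusted p = 0.00297). Magi2 had a slope of -0.08 (SE 0.02, adjusted p = 0.00169), Podxl of -0.09 (SE 0.04, adjusted p = 0.0377) and Nphs1 of -0.12 (SE 0.05, adjusted p = 0.0489). Cd2ap, Nes and Magi2 passed in all 27 fits that left out 1 mouse, Podxl in 22 and Nphs1 in 11. Without the 2 mice farthest from the median of Lcn2, RX90 and RX11LL, and in set 2 alone, 3 of the 9 genes passed. With the summed leukocyte markers in place of Lcn2, 0 passed. In that fit the slopes were 0.26 for Nes (adjusted p = 0.166), 0.117 for Cd2ap (0.505) and -0.128 for Magi2 (0.328). They were -0.0523 for Podxl (adjusted p = 0.834) and -0.0182 for Nphs1 (0.959). A count of 0 does not show that the genes are unrelated to leukocyte markers. The share of all genes that passed is not given here for that fit, for set 2 alone or without RX90 and RX11LL. Slopes on Lcn2 of Synpo (0.02), Wt1 (0.04), Plce1 (0.03) and Ptpro (-0.04) did not pass. With library totals alone, the split of all genes moved from 4102 positive and 3985 negative slopes to 7015 and 2381, and that of the 9 genes from 2 and 3 to 4 and 1. On that scale Nphs1 (-0.09, adjusted p = 0.12) and Podxl (-0.06, adjusted p = 0.145) did not pass, and Wt1 (0.07, adjusted p = 0.016) and Plce1 (0.07, adjusted p = 0.00102) did. Markers of other cells had slopes on Lcn2 too, positive for 5 of 6 parietal epithelial, 3 of 6 mesangial, 4 of 9 leukocyte, 2 of 4 fibroblast and 5 of 5 adrenal markers and negative for 6 of 6 proximal tubule and 2 of 6 endothelial markers. Among nephritic libraries only RX10LU, with 391 CPM of Lcn2, held over 100 reads of the adrenal gene Cyp11b1. The part of these other cells in the slopes of the podocyte genes was not tested.

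**Figure D3:**
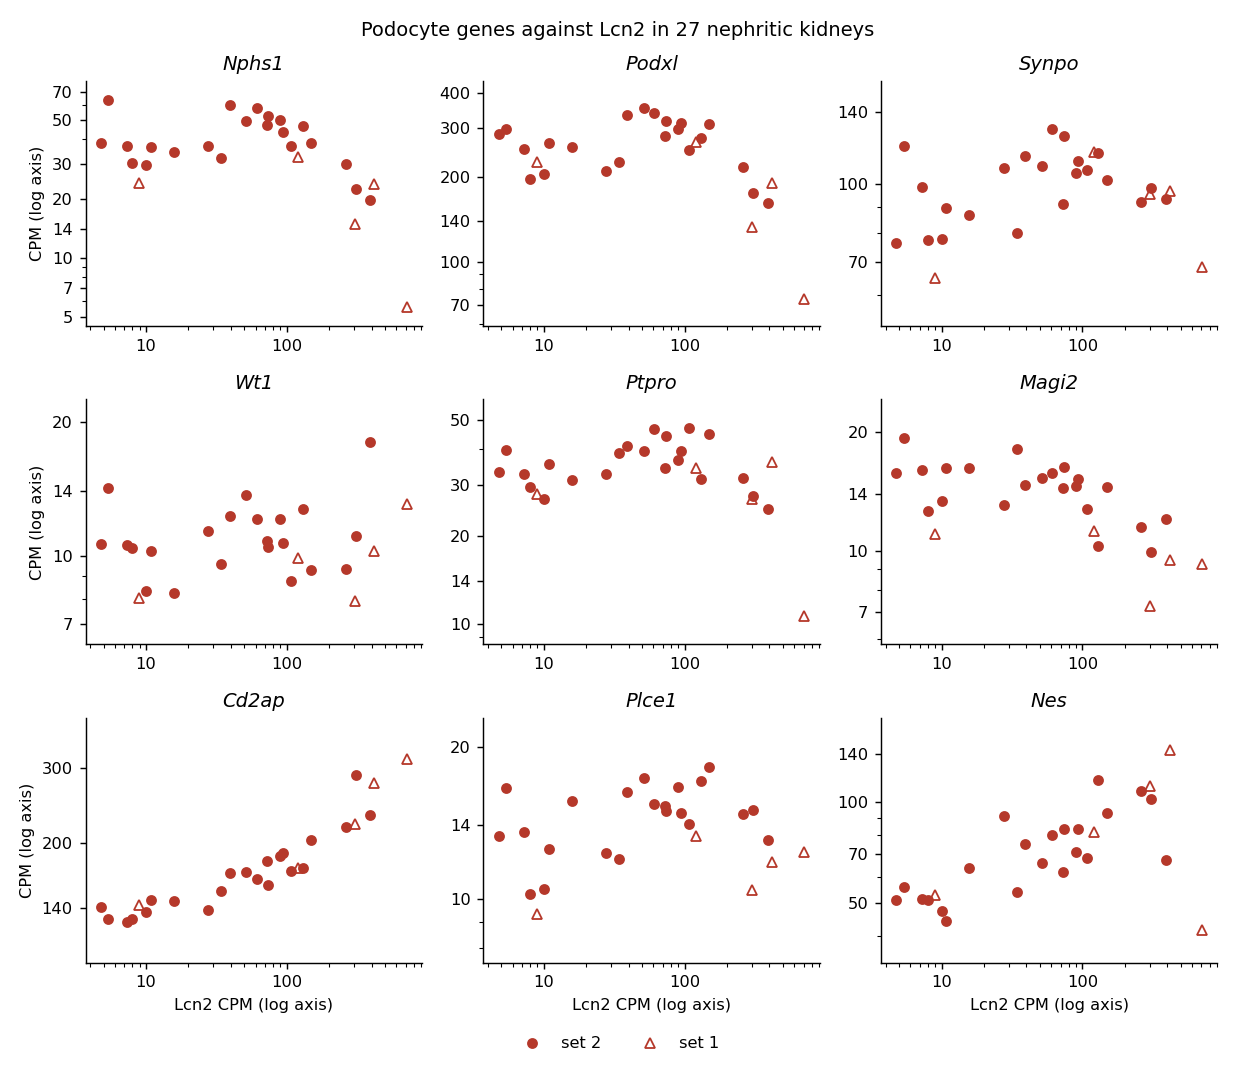
Level of each of the 9 genes against the level of Lcn2, both in CPM on logarithmic axes, in the 27 nephritic mice, with circles for set 2 and triangles for set 1. Cd2ap climbs toward the mouse with 708 CPM of Lcn2, where Nphs1 is at 5.62 CPM.

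Of the listed partners of the slit diaphragm, 10 of 21 were higher and 3 lower in nephritic mice, beside 28.1% and 33.9% of all genes, with a median log2 change of 0.18. Kirrel2, a nephrin-like protein and neighbour of Nphs1, was at 0.621 to 1.62 CPM (median 0.926) in young and 0.582 to 3.88 CPM (median 1.81) in nephritic mice of ZT0 and ZT12, and its log2 change over all times was 1.23 (SE 0.15, adjusted p = 1.77e-09). Cdh3, which encodes P-cadherin, rose by 1.18 (adjusted p = 5.58e-10), Kirrel by 0.62 (adjusted p = 4.33e-08) and Inf2, an actin-regulating formin, by 0.59 (adjusted p = 1.26e-10).

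Of 16 other podocyte-enriched genes, 5 were higher and 2 lower, with a median of 0.06, and the share that was higher lay near the 28.1% of all genes. The 4 largest changes that passed were those of Pdpn (0.66, adjusted p = 1.46e-10), which encodes podoplanin, Cdkn1c (0.49, adjusted p = 1.16e-05), a cell cycle inhibitor, Foxd1 (0.40, adjusted p = 4.42e-05) and Rhpn1 (0.30, adjusted p = 0.00219). Of 12 genes of the glomerular basement membrane and its anchors, 8 were higher and 3 lower, with a median of 0.16, beside the same 28.1% and 33.9%. Nid1 (0.53), Itga3 (0.48) and Lama5 (0.38) rose, and Col4a4 fell by 0.35 on the log2 scale (adjusted p = 0.000293).

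Other cell types also moved between the groups. All 9 leukocyte markers were higher in nephritic mice, with a summed level of 31.7 to 100 CPM in young and 124 to 3366 CPM in nephritic mice. All 6 proximal tubule markers were lower, with sums of 7568 to 13805 CPM and 1344 to 10240 CPM. Of 6 markers each, 5 parietal epithelial markers were higher and 0 lower, 3 mesangial markers were higher and 2 lower, and 0 endothelial markers were higher and 3 lower. Of 4 fibroblast markers 2 were higher and 0 lower, all 4 tubular injury genes were higher, and 3 of 5 adrenal markers were lower. Over 100 reads of the adrenal gene Cyp11b1 were held by 8 young libraries and by 1 nephritic library, RX10LU. The part of these cell types in the levels of Nes, Cd2ap and the other podocyte genes was not tested.

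In young mice 5 of the 9 genes passed the test for a daily pattern, made over 6 time points in 30 mice, where 39.8% of 16521 genes passed. Wt1 had the smallest p (adjusted p = 0.000519), with 11.03 ± 1.69 CPM (SD, n = 7) at ZT0, 7.38 ± 1.21 CPM (n = 4) at ZT8, 7.79 ± 1.42 CPM (n = 7) at ZT12 and 11.3 ± 3.09 CPM (n = 4) at ZT20. Its range between the highest and lowest set-adjusted mean was 0.68 on the log2 scale, the widest of the 9. Cd2ap (adjusted p = 0.00261) was at 127 ± 7.10 CPM at ZT12, 147 ± 5.36 CPM at ZT0 and 146 ± 11.3 CPM at ZT20, and its log2 range, between the set-adjusted means of ZT20 and ZT12, was 0.20. Plce1 (adjusted p = 0.00571) was at 9.96 ± 0.376 CPM at ZT4 and 14.6 ± 3.09 CPM at ZT20, a log2 range of 0.53. Ptpro (adjusted p = 0.00965) and Nes (adjusted p = 0.0182) also passed.

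The set-adjusted means of Wt1, Cd2ap, Plce1, Ptpro, Nes and Podxl were highest at ZT20, in the dark phase, that of Nphs1 at ZT16, that of Synpo at ZT0 and that of Magi2 at ZT8. Synpo (adjusted p = 0.0565), Magi2 (0.0682), Nphs1 (0.189) and Podxl (0.387) did not pass. RNA of the adrenal gland differed between libraries, with 8 young libraries holding over 100 reads of the adrenal gene Cyp11b1. The part of adrenal RNA in the daily pattern was not tested. The libraries were ZT0RU, ZT20LU, ZT12RL, ZT12LU and ZT120 and, at ZT16, ZT16RU, ZT16LL and ZT160. ZT16LU is the only young mouse of ZT16 outside these 8 libraries. Without them 2 of the 9 genes, Wt1 and Cd2ap, passed in young mice, while Plce1 (adjusted p = 0.0946), Ptpro (0.19) and Nes (0.166) did not. That fit held fewer mice, and its share of all genes is not given here. The lower count cannot be read as particular to these genes.

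In nephritic mice 0 of the 9 genes passed, where 21.6% of 16872 genes did. Nes (p = 0.0319) and Plce1 (p = 0.0323) were the 2 with an unadjusted p under 0.05 in edgeR's quasi-likelihood F test, DESeq2 called 2 and limma-voom 0. The difference in pattern between young and nephritic mice was tested over 17521 genes, of which 6.27% passed, and Nes passed alone of the 9 (adjusted p = 0.0252). Young mice had their lowest Nes at ZT12, at 30.0 ± 1.51 CPM (SD, n = 7), and nephritic mice their highest, at 96.1 ± 32.4 CPM (SD, n = 6). At ZT20 young mice were at 37.4 ± 2.28 CPM (n = 4) and nephritic mice at 61.5 ± 10.03 CPM (n = 3). The Nes difference was lost without any of the mice HIL5RU, HIL5LL or RX8RU (adjusted p = 0.0509 to 0.0568), with a 24 h cosine in place of time points (0.39), in set 2 alone (0.0766) and without the Cyp11b1 libraries (0.0913).

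**Figure D4:**
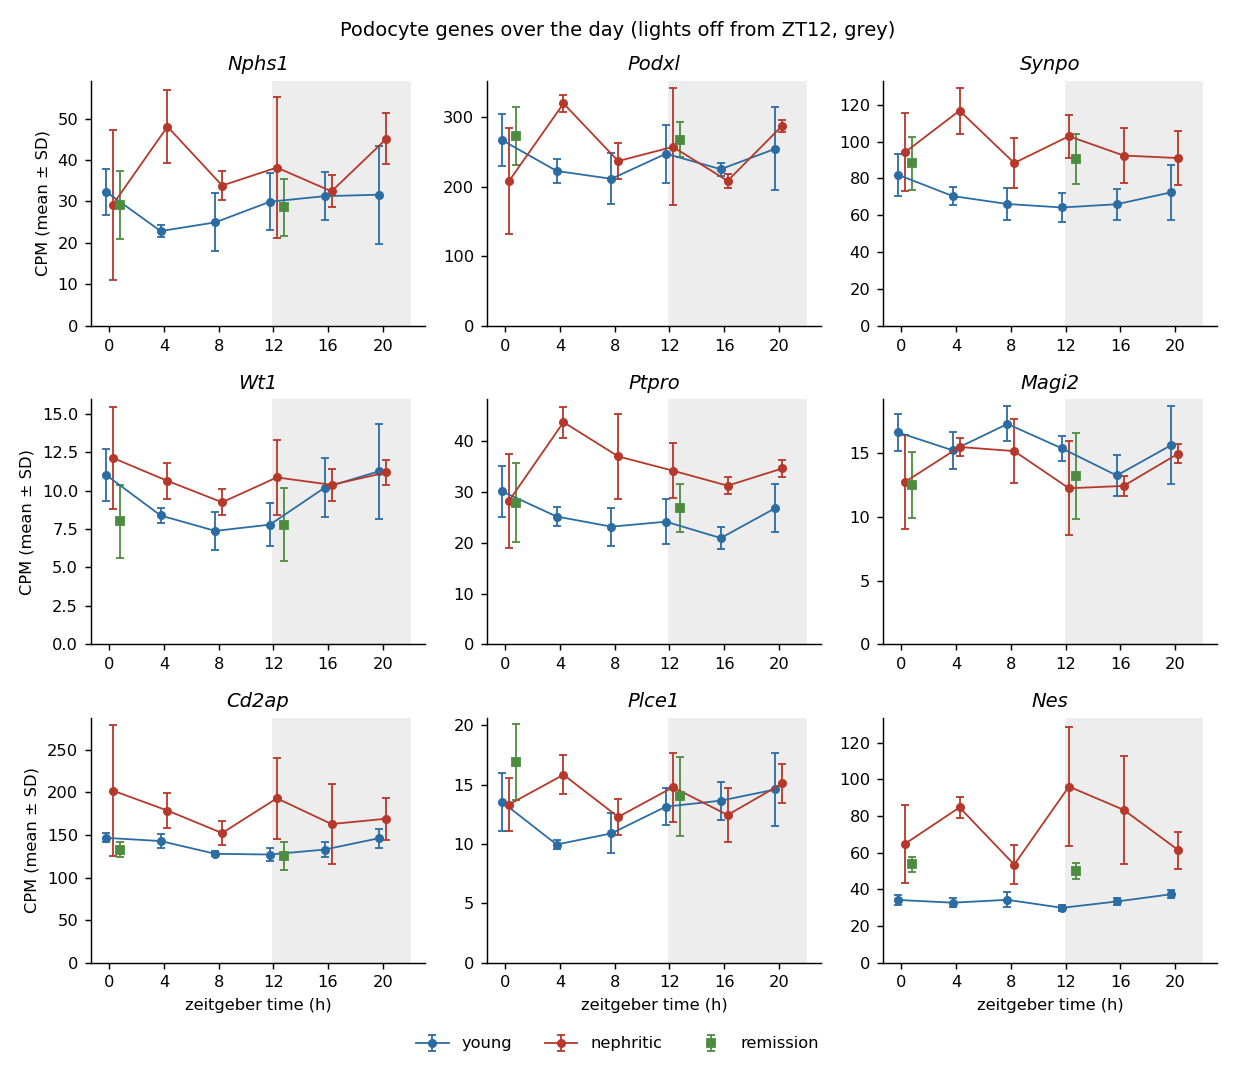
Mean ± SD level in CPM of each of the 9 genes against Zeitgeber time in hours in young and nephritic mice, with the dark phase shaded from ZT12. The Nes panel shows nephritic mice highest at ZT12 (96.1 CPM), where young mice are lowest (30.0 CPM), and the Wt1 panel shows the young mice falling from 11.03 CPM at ZT0 to 7.38 CPM at ZT8.

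The difference between nephritic and young mice was also estimated at each time. Of the 9 genes 3 passed at ZT0 (39.5% of all genes), 5 at ZT4 (30.3%), 1 at ZT8 (3.66%), 6 at ZT12 (50.0%), 2 at ZT16 (17.7%) and 1 at ZT20 (5.48%). The log2 change of Nes was 0.91, 1.33, 0.63, 1.67, 1.32 and 0.70 in that order, and it passed at every time except ZT8 (adjusted p = 0.0623). Nphs1 passed only at ZT4, with a log2 change of 1.03 (SE 0.34, adjusted p = 0.0197), from 22.9 ± 1.46 CPM in 4 young to 48.0 ± 8.71 CPM in 4 nephritic mice. At ZT0, the time with most set 1 mice, it was at -0.20 (adjusted p = 0.57).

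In remission, 3 of the 9 genes were lower than in nephritic mice and 3 differed from young mice, calls that were also common over all genes. The 3 groups were fitted together at ZT0 and ZT12, with 14 young, 13 nephritic and 8 remission mice and 16841 genes. Set entered as 1 term shared by the 3 groups, and all remission mice were in set 2. The nephritic change differed between sets for 7 of the 9 genes, which that single term does not allow for. Where a call changed in set 2 alone, that value is given too. Both comparisons use the same remission mice. Against nephritic mice 0 of the 9 genes were higher and 3 lower, where 17% of all genes were higher and 20.5% lower. With library totals alone the split of all genes moved from 2868 higher and 3451 lower to 1709 and 4870, with a median of -0.14, and the 9 genes stayed at 0 and 3. Against young mice 2 were higher and 1 lower, where 21.2% of all genes were higher and 20.4% lower.

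Cd2ap was at 110 to 140 CPM (median 137) in remission, against 130 to 314 CPM (median 174) in nephritic mice of ZT0 and ZT12, and fell by 0.53 on the log2 scale (SE 0.13, adjusted p = 0.00201). Against young mice (119 to 153 CPM) its log2 change was 0.00 with a 95% interval from -0.26 to 0.26, and 2 of 8 remission mice lay below all 30 young mice. Nes was at 46.7 to 58.6 CPM (median 52.3) in remission, between young mice (27.3 to 39.8 CPM) and nephritic mice (41.5 to 143 CPM, median 67.5). It fell by 0.54 against nephritic mice (SE 0.16, adjusted p = 0.00828) and stayed 0.75 higher than in young mice (SE 0.16, adjusted p = 0.000246). Wt1 was at 6.05 to 11.5 CPM (median 6.97) in remission and 7.89 to 18.02 CPM (median 11.1) in nephritic mice and fell by 0.50 (SE 0.15, adjusted p = 0.0114). Against young mice its log2 change was -0.19 with a 95% interval from -0.51 to 0.12.

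Synpo was at 75.6 to 109 CPM (median 86.5) in remission and 51.6 to 99.8 CPM (median 73.7) in young mice, a log2 change of 0.32 (SE 0.12, adjusted p = 0.0299) that was lost without any of 5 mice. Magi2 was at 9.24 to 17.5 CPM (median 13.1) in remission and 13.8 to 18.7 CPM (median 15.9) in young mice and fell by 0.40 (SE 0.14, adjusted p = 0.0177). Among set 2 mice alone, which include all remission mice, Magi2 did not pass (-0.29, adjusted p = 0.0921), nor did it with no set term (-0.30, adjusted p = 0.0677). In that set 3 of the 9 genes were higher and 0 lower than in young mice, with Plce1 the added one (0.37, adjusted p = 0.00997). Against nephritic mice neither passed, with log2 changes of -0.11 for Synpo and -0.01 for Magi2. Nphs1, at 23.3 to 41.3 CPM (median 25.7) in remission, passed in neither comparison with both sets in the fit. Its log2 change was -0.25 against nephritic mice, with a 95% interval from -0.76 to 0.26, and -0.21 against young mice, with one from -0.75 to 0.33. In set 2 alone it was lower than in nephritic mice (-0.52, adjusted p = 0.0391), and its log2 change against young mice was 0.10 (adjusted p = 0.713). Podxl (237 to 318 CPM), Ptpro (21.7 to 37.9 CPM) and Plce1 (9.24 to 20.1 CPM) also passed in neither with both sets in the fit.

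Whether the remission libraries shared a sequencing run with any others is not given in the sources used here. With a covariate for the remission and repeat libraries, bridged by the 4 mice that have both kinds, 0 of the 9 genes passed against young mice (Nes 0.40, adjusted p = 0.227) and 3 against nephritic mice. At ZT0 alone 1 and 0 passed. The share of all genes in the bridged fit and at ZT0 alone is not given here. Of the 4 bridging mice 1 was RX11RU, whose repeat was nearest to another mouse. Markers of other cells moved as well. Against nephritic mice 5 of 6 endothelial markers were higher (median log2 change 0.60), while 3 of 6 parietal epithelial markers, 2 of 4 fibroblast markers, 1 of 6 mesangial markers, 1 of 6 proximal tubule markers, all 4 tubular injury genes and all 5 adrenal markers were lower. RX10LU was the only nephritic library with over 100 reads of the adrenal gene Cyp11b1, and no remission library had as many. Against young mice 4 of 6 proximal tubule markers were lower. Leukocyte markers were at a summed 173 to 1247 CPM, with 9 of 9 higher than in young mice and 0 of 9 different from nephritic mice in the test. Lcn2 was at 7.19 to 64.8 CPM (median 16.6) in remission mice and 1.55 to 4.41 CPM in young mice of ZT0 and ZT12. The part of these cells in the remission values of the podocyte genes was not tested.

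Of the 21 slit diaphragm partners, 2 were higher and 6 lower in remission than in nephritic mice (17% and 20.5% of all genes), and 6 were higher and 1 lower than in young mice (21.2% and 20.4%). Kirrel2 was at 0.409 to 1.83 CPM (median 0.966) in remission and fell by 0.83 against nephritic mice (SE 0.25, adjusted p = 0.00959), with a log2 change of 0.04 against young mice. Cdh3 fell by 0.78 against nephritic mice (adjusted p = 0.0251) and was 0.74 higher than in young mice (adjusted p = 0.0221). Inf2 fell by 0.44 (adjusted p = 0.00188) and was 0.35 higher than in young mice (adjusted p = 0.00926). Of the 16 other podocyte-enriched genes 1 was higher and 2 were lower than in nephritic mice, and of the 12 basement membrane genes 0 were higher and 5 lower.

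**Figure D5:**
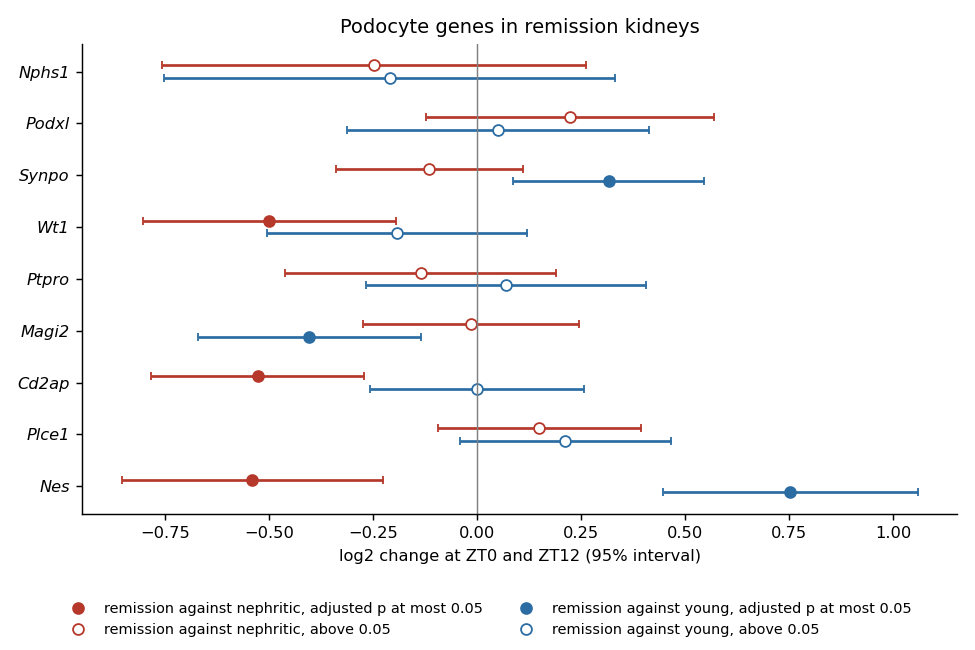
Log2 change of remission mice against nephritic and against young mice for each of the 9 genes, with unadjusted 95% intervals and filled points for an adjusted p of at most 0.05. Nes lies at -0.54 against nephritic and 0.75 against young mice, and Cd2ap at -0.53 and 0.00.

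ZT0 was set against ZT12 within each group in the same fit. In remission mice 0 of the 9 genes passed (0.0475% of all genes), with 0 at an unadjusted p under 0.05 and 0 with limma-voom or DESeq2. In young mice 0 passed (3.66% of all genes), with 2 at an unadjusted p under 0.05 (Synpo and Wt1), and 0 passed with limma-voom or DESeq2. Young mice fitted by themselves gave 5, but the share of all genes in that fit is not given here. The log2 change of Wt1 was 0.50 in the fit of 3 groups and 0.49 in young mice by themselves. In nephritic mice 1 passed (3.52% of all genes), Nes, lower at ZT0 by 0.55 on the log2 scale (SE 0.16, adjusted p = 0.0476), and it passed in 10 of 35 fits that left out 1 mouse. In remission Nes was at 53.7 ± 3.92 CPM (SD, n = 4) at ZT0 and 50.1 ± 4.34 CPM (n = 4) at ZT12. Wt1 was at 8.01 ± 2.37 and 7.79 ± 2.36 CPM.

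The 9 genes varied together to different degrees among mice, described here without a test over 57 young and nephritic mice, whose libraries share depth and the mix of cells. After removal of group, time and set means, the log2 CPM of Synpo correlated with the mean of the other 8 at r = 0.837, Nphs1 at 0.804, Ptpro at 0.774, Podxl at 0.735 and Plce1 at 0.723. Wt1 (0.558) and Magi2 (0.450) followed, and Nes (0.180) and Cd2ap (-0.285) stood apart. Between Nphs1 and Podxl r was 0.884 in 30 young and 0.946 in 27 nephritic mice. Between Nphs1 and Wt1 it was 0.895 in young and -0.0970 in nephritic mice, and between Magi2 and Cd2ap 0.513 and -0.690.

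Among 14166 ranked genes, the 8 most like the mean of the 9 were Sema3e (r = 0.899), Robo2 (0.882), Tspan2 (0.880), Nell2 (0.873), Myom2 (0.835), Thsd7a (0.818), Golim4 (0.817) and C130021I20Rik (0.809). Robo2 and Thsd7a are themselves on the list of other podocyte-enriched genes. Their nephritic change in set 1 minus that in set 2 was -1.14 for Robo2 (adjusted p = 0.000432) and -0.91 for Thsd7a (adjusted p = 0.000732). The means removed before the ranking leave this set difference in. Genes ranked as like the 9 therefore tend to share it, and these 2 values are not separate support. Of the 16 genes of that list 7 were lower and 0 higher in the set comparison, where 18.4% of all genes were lower and 16.7% higher.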

How the data were processed

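RNASeq of whole kidneys was analysed for 30 young mice, 27 with nephritis and 8 in remission, each mouse as 1 replicate of the group and time its labels give. The authors aligned paired-end reads with a Burrows-Wheeler aligner per their methods (HISAT and mm10 are named in the submitters' processing notes), kept uniquely aligned reads, and deposited whole-number counts per gene symbol without normalization. Of 24538 symbols, 15 were empty and left out.

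Each fit kept genes whose counts summed to 100 or more in its mice. Counts were scaled by TMM and tested with edgeR 4.0.16 (quasi-likelihood F test, Benjamini-Hochberg over all genes tested, adjusted p of at most 0.05) in R 4.3.3, with set and, for levels, time point as covariates. CPM values are counts scaled to library size and TMM factors, and log2 CPM used a prior count of 2. With total counts of 13311278 to 48075977 per mouse, intervals reflect the spread between mice. Replicates were compared in 132 pairs, and the lowest chi-square per degree of freedom was 3.88, so no pair of replicates agreed within sampling noise. Scripts were tested on simulated data. At a log2 amplitude of 0.3, 29 of 200 changed genes were recovered for the young daily pattern and 13 of 200 for the nephritic one. For remission against nephritic mice 55 of 200 were recovered at a log2 change of 0.5. For nephritic against young mice 142 of 200 were recovered at 0.4. Genes that did not pass may therefore still differ.

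The 9 genes and all gene lists were chosen with earlier results of these data known. All 9 were named, with the 4 largest changes past the threshold in the partner, podocyte and basement membrane lists, Kirrel2 and the 8 genes most like the 9. One further gene is not reported here. The set comparison, and fits without doubted or adrenal libraries or with a group by itself, were added after seeing the data. Other alternatives were RLE factors, library totals, limma-voom (limma 3.58.1), DESeq2 1.42.0, no count filter, set 2 alone, no set term, repeat libraries, a cosine, single times and leaving out each mouse. The strand used in counting is not given in the sources used here, so antisense or overlapping reads cannot be separated.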

Additional observations from a re-analysis of the deposited data

Results flagged for a closer look

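Within each group and time point of 4 to 10 mice, the highest and the lowest mouse were compared with the others by Dixon's ratio, and 6 of 108 cases passed its critical value, where chance gives about 1 in 20. In the remission mouse s1 at ZT0, Nphs1 was at 41.3 CPM (others 23.5 to 26.3) and Wt1 at 11.5 CPM (others 6.55 to 7.14), both the highest. In the remission mouse s8 at ZT0, Cd2ap was at 120 CPM, the lowest (others 136 to 138). In young mice, Podxl in ZT160 at ZT16 was at 212 CPM (others 228 to 231), Wt1 in ZT4RL at ZT4 was at 9.06 CPM (others 8.06 to 8.22) and Cd2ap in ZT4RU at ZT4 was at 131 CPM (others 145 to 148).

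The daily pattern of Nes differed between young and nephritic mice in edgeR's quasi-likelihood test (adjusted p = 0.0252). The nephritic change also differed between the 2 RNASeq sets, in the test of the difference itself. Set 1 minus set 2 on the log2 scale was -1.48 for Nphs1, -0.873 for Podxl, -0.801 for Wt1, -0.769 for Plce1, -0.71 for Ptpro, -0.627 for Magi2 and -0.482 for Synpo.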

How the results depend on the processing

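No paired analysis was possible because the mouse names carry no replicate numbers shared between groups. Of 1125 values under the alternatives that leave out no single mouse, 985 kept their direction and side of the threshold, 65 fell below it, 34 passed it and 41 changed sign, and the cause of these changes was not tested.

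Of the 9 genes, the number that passed for nephritic against young mice was 6. It was 3 at ZT0, 5 at ZT4, 1 at ZT8, 6 at ZT12, 2 at ZT16 and 1 at ZT20. The share of all genes that passed also differed between times, from 3.66% at ZT8 to 50.0% at ZT12. Set 1 alone also gave 6, but 2 higher and 4 lower in place of 5 and 1. Set 2 alone gave 8, with 8 higher and 0 lower, and DESeq2 gave 8, with 7 higher and 1 lower. The daily pattern in young mice gave 5, and 2 without the Cyp11b1 libraries. In nephritic mice it gave 0, 2 with DESeq2 and 1 in set 2 alone. The difference in pattern gave 1, 2 with library totals or DESeq2, and 0 with a cosine or without the Cyp11b1 libraries. Remission against nephritic mice gave 3, 4 in set 2 alone and 0 at ZT0 alone. Remission against young mice gave 3, 0 when bridged by repeats and 1 at ZT0 alone. ZT0 against ZT12 gave 0 in young mice and 5 when fitted by themselves, and 1 in nephritic mice and 0 with library totals, no count filter, set 2 alone, repeat libraries or the group by itself. The slope on Lcn2 gave 5, 3 in set 2 alone or without the 2 farthest mice, and 0 with leukocyte markers. With library totals it also gave 5, but 4 positive and 1 negative in place of 2 and 3. Remission against young mice in set 2 alone also gave 3, but 3 higher and 0 lower in place of 2 and 1. Apart from the single times, the share of all genes is not given beside the counts of these alternatives. Such counts cannot be read as particular to the 9 genes.

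Leaving out 1 mouse at a time gave 6 to 8 genes for nephritic against young, 5 to 7 for the young pattern, 0 to 1 for the nephritic pattern, 0 to 2 for the difference in pattern, 3 for remission against nephritic, 2 to 3 for remission against young, 0 for ZT0 against ZT12 in remission and young mice, 0 to 1 in nephritic mice, 3 to 5 for the slope and 5 to 7 for the sets.

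Signs changed for nephritic against young in Nphs1 (set 1 alone -0.863, ZT0 -0.195), Podxl (limma-voom -0.0285, without RX11RU and RX11LU -0.00715, set 1 alone -0.713, ZT0 -0.378, ZT16 -0.115), Wt1 (set 1 alone -0.162, ZT20 -0.0288), Ptpro (set 1 alone -0.212, ZT0 -0.0963) and Plce1 (set 1 alone -0.4, ZT0 -0.0376, ZT16 -0.136). For remission against nephritic mice they changed in Magi2 (no set term 0.0572, bridged 0.0967, both groups alone 0.067, ZT12 0.0513, without RX11RU 0.012) and Plce1 (set 2 -0.00716, bridged -0.0357, ZT12 -0.1).

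For remission against young mice they changed in Nphs1 (set 2 0.1), Podxl (bridged -0.000852), Wt1 (ZT12 0.0623), Ptpro (ZT0 -0.101) and Cd2ap, whose value was near 0 (RLE -0.00367, limma-voom -0.0127, DESeq2 -0.00366, no count filter -0.0196, set 2 -0.0683, no set term -0.0682, bridged -0.107, both groups alone -0.0685, ZT0 -0.107, without s9 -0.0315, without RX11RU -0.00308). For ZT0 against ZT12 they changed in Nphs1 of remission mice (without s9 -0.0446) and Plce1 of young mice (set 2 -0.0602, repeat libraries -0.00275), and for the slope in Ptpro (leukocyte markers 0.164).

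Leaving out 1 mouse changed the sign of Podxl for nephritic against young (-0.00514 to 0.075), of Magi2 for remission against nephritic (-0.106 to 0.0574), of Ptpro (-0.0126 to 0.125) and Cd2ap (-0.0315 to 0.0228) for remission against young, and of Nes between sets (-0.0667 to 0.344). For ZT0 against ZT12 in remission mice the ranges were -0.187 to 0.188 for Nphs1, -0.0434 to 0.0932 for Podxl, -0.146 to 0.052 for Synpo, -0.183 to 0.27 for Wt1, -0.129 to 0.168 for Ptpro and -0.213 to 0.0806 for Magi2. In young mice Plce1 ran from -0.0299 to 0.101, and in nephritic mice Magi2 from -0.0207 to 0.172 and Cd2ap from -0.0542 to 0.189.

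All 9 genes passed the count minimum in every comparison.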

Other observations

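The 4 repeat libraries allow a look at how far the podocyte genes move when a mouse is sequenced again. In ZT0LU, ZT12RU and RX12RU, whose repeat was nearest its own original (r = 0.994, 0.996 and 0.994 over genes), the repeat minus the original ranged from -0.25 (Plce1 in ZT0LU) to 0.34 (Wt1 in RX12RU) on the log2 scale over the 9 genes. Nphs1 moved by -0.04, -0.05 and 0.02 in these 3 mice and Podxl by 0.06, 0.06 and 0.12. The repeat labelled RX11RU correlated at 0.994 with the original of RX11LU and at 0.969 with its own, and its 9 differences from its own original ran from -0.42 for Wt1 to 0.54 for Nes.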
